A study of Mus musculus with 18 samples.

Results

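The genes described here are the 10 apolipoprotein and lipoprotein assembly genes *Apoa1*, *Apoa2*, *Apoa4*, *Apoa5*, *Apob*, *Apoc1*, *Apoc2*, *Apoc3*, *Apoe* and *Mttp*, which were chosen by symbol from the 22524 genes listed for each liver. All 10 were found and all 10 passed the filter on low counts. The livers came from 10 A226Y and 8 WT female mice of the C57BL/6 strain, all 15 months old, with 1 RNA library per mouse. The A226Y mice carried 1 *Rps2* allele with the A226Y change, which alters a ribosomal protein of the decoding centre, and the WT mice carried the same ubiquitous CMV-Cre transgene without the altered allele. The change was knocked in behind a floxed stop cassette that the CMV-Cre removed, and since the removal was never complete, the A226Y livers were mosaics of cells with the mutant allele and cells in which that allele was still silent. The comparison therefore addressed how the liver transcript levels of these genes differed between aged A226Y and WT mice.

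Hepatocytes assemble very-low-density lipoprotein (VLDL) around 1 molecule of apolipoprotein B, to which the microsomal triglyceride transfer protein, encoded by *Mttp*, adds lipid in the endoplasmic reticulum. The smaller apolipoproteins exchange between particles. Apolipoproteins A-I and A-II are the main proteins of high-density lipoprotein (HDL), apolipoprotein E is the ligand by which liver receptors take up remnant particles, and the C group together with A-V sets the activity of lipoprotein lipase on triglyceride-rich particles. Apolipoprotein A-IV is made by the intestine and, in mice, also by the liver, where its transcript is known to rise with fasting and with a load of triglyceride.

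In the GENCODE annotation of GRCm38, 4 of the 10 genes lie in a cluster on chromosome 9 and 3 in a cluster on chromosome 7. The chromosome 9 cluster holds *Apoa1* (ENSMUSG00000032083, 46228580 to 46230466, plus strand), *Apoc3* (ENSMUSG00000032081, 46232933 to 46235636, minus strand), *Apoa4* (ENSMUSG00000032080, 46240696 to 46243459, plus strand) and *Apoa5* (ENSMUSG00000032079, 46268633 to 46271919, plus strand). The chromosome 7 cluster holds, all on the minus strand, *Apoc2* (ENSMUSG00000002992, 19671579 to 19677941), *Apoc1* (ENSMUSG00000040564, 19689481 to 19692660) and *Apoe* (ENSMUSG00000002985, 19696109 to 19699188). *Apoa2* (ENSMUSG00000005681) lies on chromosome 1 from 171225054 to 171226379 on the plus strand. *Apob* (ENSMUSG00000020609) spans 29 exons on chromosome 12 from 7977648 to 8016835 on the plus strand, and *Mttp* (ENSMUSG00000028158) lies on chromosome 3 from 138089854 to 138144968 on the minus strand. Some of these genes overlap other annotated genes, and since no strand setting of the counting is stated, their counts are uncertain to that extent. *Apoc2* shared 79.5% of its exon bases with the same-strand gene *Gm44805*, *Apoa4* shared 34.9% with the opposite-strand gene *Gm47528* and 34.8% with *Gm10680*, and *Apoa5* shared 20.8% with *Gm47544*, none of which had a row in the counts. *Mttp* shared 7.36% with the opposite-strand gene *Trmt10a*, whose 2536 counts over all mice compare with 236974 for *Mttp*.

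The bases just before the annotated start are shown for the 4 genes whose transcript level differed between the genotypes, so that their promoters can be read beside the levels given below. The sequences are those of RefSeq on GRCm38.p6, on the strand of the gene, and end at the base before the gene. Capitals mark matches to 7 motifs searched on both strands in the 250 bases before the RefSeq start, without overlap between matches: TATAAA (the TATA box), CAAAGTC (the core of the element bound by HNF4), AGGTCA (a nuclear receptor half-site), GTTAAT (an HNF1 half-site), CACGTG (an E-box), CCAAT (the CCAAT box) and GGGCGG (a GC box).
Apob, chr12:7977427-7977647, plus strand: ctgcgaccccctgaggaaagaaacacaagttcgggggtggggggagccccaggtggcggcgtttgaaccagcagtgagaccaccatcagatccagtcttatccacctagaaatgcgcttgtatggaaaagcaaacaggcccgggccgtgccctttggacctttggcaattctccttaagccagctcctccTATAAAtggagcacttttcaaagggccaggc
Apoe, chr7:19699189-19699438, minus strand: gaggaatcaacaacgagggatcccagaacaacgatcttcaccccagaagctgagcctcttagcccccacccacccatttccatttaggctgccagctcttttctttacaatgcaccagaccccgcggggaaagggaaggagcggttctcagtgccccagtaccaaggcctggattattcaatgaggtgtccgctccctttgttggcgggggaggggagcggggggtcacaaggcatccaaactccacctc
Apoa4, chr9:46240594-46240695, plus strand: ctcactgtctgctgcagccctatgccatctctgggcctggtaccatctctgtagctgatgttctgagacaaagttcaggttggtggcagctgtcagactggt
Apoa2, chr1:171224804-171225053, plus strand: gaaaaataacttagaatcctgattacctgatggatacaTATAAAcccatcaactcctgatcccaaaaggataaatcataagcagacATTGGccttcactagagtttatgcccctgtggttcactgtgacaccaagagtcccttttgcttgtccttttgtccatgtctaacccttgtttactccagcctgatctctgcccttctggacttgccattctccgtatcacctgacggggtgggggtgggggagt
The *Apob* window held TATAAA from 60 to 55 bases before the RefSeq start, which lies 29 bases inside the GENCODE gene. The *Apoa2* window held TATAAA from 212 to 207 bases and ATTGG, the CCAAT box on the other strand, from 164 to 160 bases before the start. None of the 7 motifs was present in the windows of *Apoe* and *Apoa4*. Of the 8 genes with an entry in the promoter table (all but *Apoc1* and *Apoc3*), *Apoa5* had CACGTG and TATAAA, *Apoc2* had AGGTCA and GTTAAT, and *Apoa1* and *Mttp* had no match. The RefSeq start of *Mttp* lies 1550 bases inside the GENCODE gene, so that its whole window is within the gene, and for *Apoa4* 148 and for *Apoa1* 50 of the 250 bases are. Among all 32851 promoter windows of this length, 12.4% held TATAAA, 33.8% CCAAT, 6.02% CACGTG, 14.02% AGGTCA, 6.43% GTTAAT, 3.84% CAAAGTC and 32.7% GGGCGG.

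The A226Y libraries held between 23850565 and 62126131 counts each, and the WT libraries between 25869192 and 34918732. The lowest count of any of the 10 genes in any library was 7281 (*Apoa4* in 1 WT mouse), so that the spread between mice, and not counting error, set the precision. The targeted gene *Rps2* ranged from 46.9 to 83.0 CPM (TMM-normalised read counts) in the A226Y mice and from 103.8 to 143.0 CPM in the WT mice, so that all 10 A226Y libraries lay below the lowest WT library. Reads of the mutant and the normal allele are counted together. The hepatocyte marker list summed to between 102963 and 164922 CPM in the A226Y livers and between 112285 and 203619 CPM in the WT livers, with no marker at 0. The libraries of A226Y animal 29 and WT animal 33 stood apart, with a median correlation to the other libraries of 0.961 and 0.970 against at least 0.976 for the rest, and they had the highest summed levels of the 16 acute phase genes, 77217 and 54629 CPM against at most 32781 CPM in the other mice. For the 10 genes, values without both are given where they changed a call. For the lists of other genes described below they are not given. Without both, 2363 genes were called, and 1698 of these were among the 1910 called with all mice. In bulk liver RNA, fewer cells of a type and less RNA per cell cannot be told apart.

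Among the 10 genes, *Apob* and *Apoa4* rose and *Apoe* and *Apoa2* fell in A226Y livers, and the other 6 did not pass the test. The changes were modest except for *Apoa4*, whose level was 2.34-fold that of WT. *Apob* was 1.22-fold higher, *Apoa2* was 1.24-fold lower and *Apoe* was 1.33-fold lower. Genes were compared with the two-sided quasi-likelihood test of edgeR, with p-values adjusted by the Benjamini-Hochberg method over all 13353 tested genes and a threshold of 0.05. Under the same rule 14.3% of all tested genes were called, 7.27% as higher and 7.03% as lower. The median log2 fold change was 0.043 over the 10 genes and −0.0044 over all tested genes, and 5 of the 10 had a positive value against 49.0% of all genes. In none of the 10 did the 2 groups of mice separate without overlap, which 0.637% of all tested genes did. All 4 calls were lost when 4 surrogate variables were added as covariates (lowest adjusted p = 0.0798, from edgeR), a fit in which 50 genes were called in all.

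**Figure D1:**
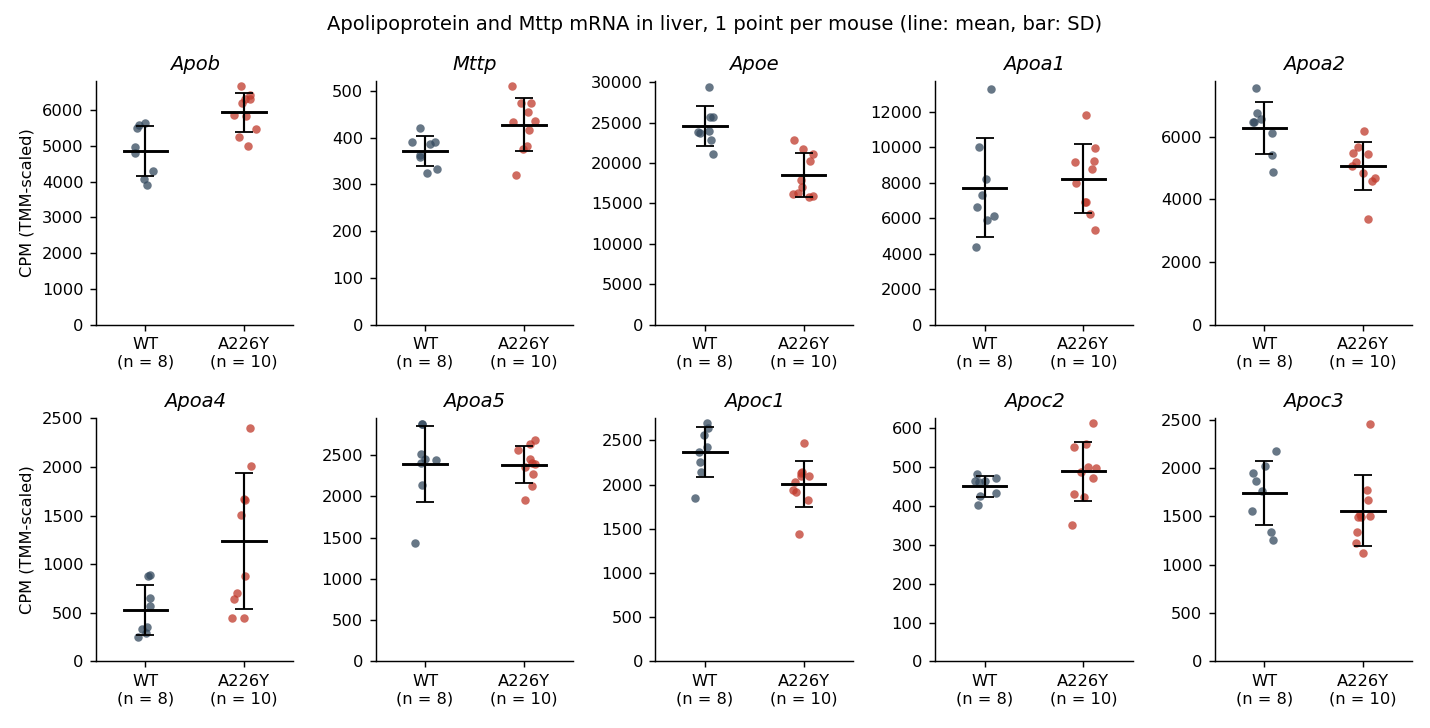
Level of each gene in every liver, in CPM after TMM scaling on linear axes that start at 0 and differ between panels, with 1 point per mouse, a line at the mean and a bar of 1 SD for each genotype (10 A226Y and 8 WT mice). *Apoe* lies lower in A226Y mice (15746 to 22842 CPM against 21161 to 29445 CPM) and *Apoa4* is the most dispersed gene, from 444 to 2398 CPM in A226Y and from 255 to 892 CPM in WT mice.

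*Apob* encodes the structural protein of VLDL, of which each particle carries a single copy. Its level in WT livers ranged from 3912 to 5644 CPM with a median of 4894 CPM, and in A226Y livers from 5003 to 6678 CPM with a median of 6037 CPM. The ranges overlapped, but all 10 A226Y mice lay above the WT mean and 7 of them above the highest WT mouse. The means were 5939 ± 549 CPM (SD, n = 10) and 4850.2 ± 700.4 CPM (SD, n = 8), a log2 fold change of 0.29 (SE 0.09, adjusted p = 0.0329 from edgeR; two-sided exact permutation p = 0.00231). *Mttp*, whose product loads lipid onto apolipoprotein B, ranged from 325 to 420 CPM (median 374) in WT and from 320 to 511 CPM (median 434) in A226Y livers. Of the A226Y mice, 9 lay above the WT mean and 6 above the highest WT mouse, while 1 lay below the lowest. Its log2 fold change of 0.21 (SE 0.08) missed the threshold over all genes (adjusted p = 0.101 from edgeR), with an exact permutation p of 0.0284. It passed without A226Y animal 29 (0.25, adjusted p = 0.0203) and without both libraries that stood apart (0.22, adjusted p = 0.0322). The *Apob* call was lost when any 1 of A226Y animals 3, 7, 11 and 22 or WT animals 13, 14, 21 and 24 was left out (log2 fold changes from 0.25 to 0.29, highest adjusted p = 0.0737), and with an offset for transcript length (0.19, adjusted p = 0.101) or GC content (0.24, adjusted p = 0.0560), without a filter (0.29, adjusted p = 0.0543) and with 4 surrogate variables (0.18, adjusted p = 0.342).

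*Apoe*, the ligand for remnant uptake, is made in the liver by hepatocytes and also by macrophages, and had the second highest CPM of all tested genes. It ranged from 21161 to 29445 CPM (median 23917) in WT and from 15746 to 22842 CPM (median 17453) in A226Y livers. All 10 A226Y mice lay below the WT mean and 8 below the lowest WT mouse, and 6 of the 8 WT mice lay above the highest A226Y mouse. The means were 18499 ± 2705 CPM (SD, n = 10) and 24527 ± 2462 CPM (SD, n = 8). Its log2 fold change was −0.41 (SE 0.09, adjusted p = 0.00801 from edgeR), with an exact permutation p of 0.00048. It was the only call among the 10 genes that held when each of the 18 mice was left out in turn (highest adjusted p = 0.0201). With 4 surrogate variables its log2 fold change was −0.29 and its adjusted p 0.192. Of 12 Kupffer cell and macrophage markers, 1 (*Clec4f*) fell, near the 7.03% of all tested genes, and none rose. Their median log2 fold change was −0.42 with 1 of 12 positive, and none was at 0. Their summed level had a median of 605 CPM in A226Y (441 to 1677 CPM) and of 955 CPM in WT livers (666 to 1378 CPM). The highest sums, 1677 and 1378 CPM, were those of A226Y animal 29 and WT animal 33. The part of macrophages in the *Apoe* difference was not tested.

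Of the genes of the main HDL proteins, *Apoa2* passed the test and *Apoa1* did not, and the difference between their fold changes was not tested. *Apoa2* ranged from 4876 to 7564 CPM (median 6455) in WT and from 3362 to 6195 CPM (median 5122) in A226Y livers, with all 10 A226Y mice below the WT mean and 4 below the lowest WT mouse. It fell by 0.31 on the log2 scale (SE 0.10, adjusted p = 0.0481 from edgeR), with an exact permutation p of 0.00546 and means of 5052 ± 768 CPM (SD, n = 10) and 6275 ± 823 CPM (SD, n = 8). This call was at the threshold. It was lost under 7 of the 12 other settings and when any 1 of A226Y animals 3, 7, 11, 15, 18, 22 and 32 or WT animals 4, 13, 14, 21, 24 and 28 was left out (log2 fold changes from −0.33 to −0.27, highest adjusted p = 0.100), whereas without both libraries that stood apart it was −0.30 with an adjusted p of 0.0126. *Apoa1*, which activates the esterification of HDL cholesterol, ranged from 4355 to 13279 CPM (median 6981) in WT and from 5331 to 11808 CPM (median 8385) in A226Y livers. The A226Y range lay within the WT range. The *Apoa1* log2 fold change was 0.092 (SE 0.18, adjusted p = 0.783 from edgeR), with a 95% interval from −0.27 to 0.45 that does not show whether the groups were alike, and it ran from 0.0025 without WT animal 28 to 0.25 without WT animal 33 when 1 mouse was left out, and was 0.27 without both libraries that stood apart (adjusted p = 0.261).

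*Apoa4* had the largest fold change of the 10 genes and the widest spread between mice. WT livers ranged from 255 to 892 CPM with a median of 464 CPM. A226Y livers fell into 5 mice between 444 and 880 CPM, within the WT range, and 5 mice between 1509 and 2398 CPM, above all WT mice. The means were 1237 ± 699 CPM (SD, n = 10) and 529 ± 258 CPM (SD, n = 8), and the log2 fold change was 1.23 (SE 0.35, adjusted p = 0.0264 from edgeR; exact permutation p = 0.0125). The coefficient of variation was 56.5% in A226Y and 48.7% in WT livers, against 6.16% to 36.3% for the other 9 genes in either genotype. The call was lost without WT animal 24 (1.14, adjusted p = 0.0563) and without A226Y animal 32 (1.07, adjusted p = 0.0513). Of 7 enterocyte markers, *Alpi*, *Sis*, *Lct* and *Cdx1* had 0 counts in all 18 libraries, which allows at most 3 counts of 586667864 in all (0.00511 CPM, counting error only), and only *Fabp2*, which hepatocytes may express too, passed the filter. The summed enterocyte list ranged from 30.7 to 114 CPM in A226Y and from 52.8 to 123 CPM in WT livers.

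*Apoa5*, an activator of lipoprotein lipase and a neighbour of *Apoa4* in the cluster, ranged from 1430.2 to 2878 CPM (median 2445) in WT and from 1950.1 to 2679 CPM (median 2396) in A226Y livers. The A226Y range again lay within that of WT. Its log2 fold change was −0.0055 (SE 0.11, adjusted p = 0.980 from edgeR; 95% interval from −0.21 to 0.20), and its sign changed with the scaling.

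None of the C apolipoproteins passed the test. *Apoc1*, an inhibitor of lipoprotein lipase and of remnant uptake, ranged from 1849.6 to 2694 CPM (median 2393) in WT and from 1437 to 2468 CPM (median 2061) in A226Y livers, with 9 of 10 A226Y mice below the WT mean. Its log2 fold change was −0.24 (SE 0.09, adjusted p = 0.0869 from edgeR; exact permutation p = 0.0156, or 0.0616 with library size as the only scaling), and it passed without WT animal 33 (−0.28, adjusted p = 0.0431) and without both libraries that stood apart (−0.24, adjusted p = 0.0248). *Apoc2*, the cofactor that lipoprotein lipase needs, ranged from 401 to 481 CPM (median 462) in WT and from 351 to 614 CPM (median 492.9) in A226Y livers. A226Y mice lay on both sides of the narrow WT range, 6 above it and 1 below. The log2 fold change of *Apoc2* was 0.12 (SE 0.09, adjusted p = 0.386 from edgeR; 95% interval from −0.054 to 0.29). *Apoc3*, an inhibitor of lipoprotein lipase, ranged from 1261 to 2178 CPM (median 1814) in WT and from 1117 to 2455 CPM (median 1502) in A226Y livers. Its log2 fold change was −0.16 (SE 0.14, adjusted p = 0.462 from edgeR; 95% interval from −0.43 to 0.11), and it was −0.25 without A226Y animal 23, the mouse with the highest level (adjusted p = 0.144), and −0.11 without WT animal 13 (adjusted p = 0.659).

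**Figure D2:**
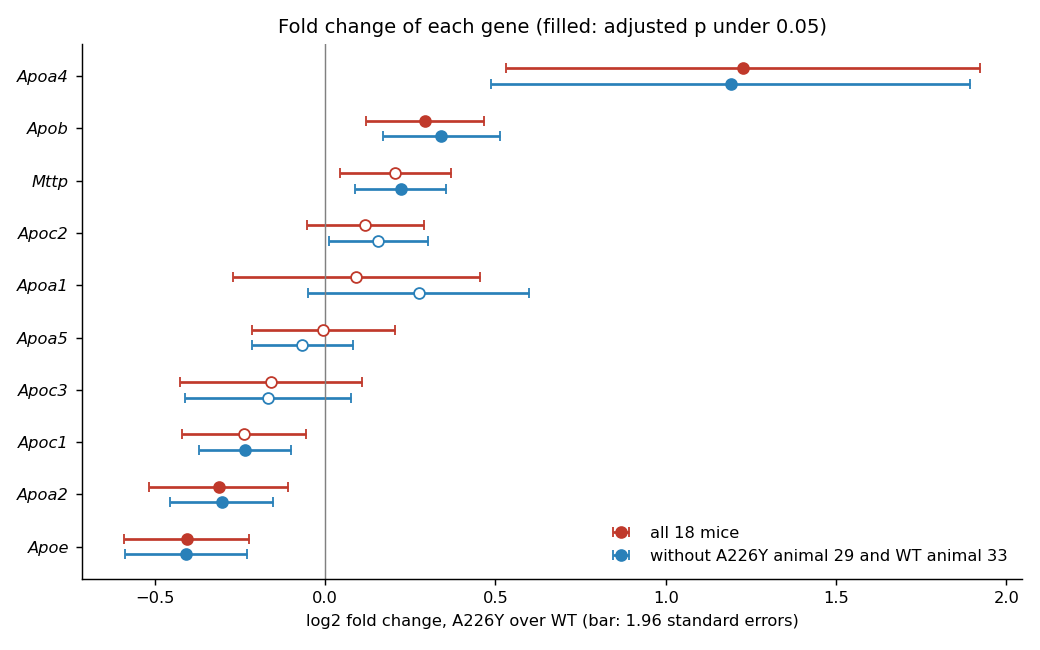
Log2 fold change of each gene, A226Y minus WT, from the edgeR fit, with bars for the 95% interval, from all 18 mice (red) and without the 2 libraries that stood apart (blue), where filled points mark an adjusted p under 0.05 over all tested genes. *Apoa4* (1.23) and *Apob* (0.29) lie above 0, *Apoe* (−0.41) and *Apoa2* (−0.31) below, and with all mice the intervals of *Apoa1*, *Apoa5*, *Apoc2* and *Apoc3* span 0.

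The 10 genes took between 3.97% and 5.52% of all counts in the A226Y livers (median 4.68%) and between 4.51% and 5.49% in the WT livers (median 5.07%). Levels were compared between genes per kilobase of the principal transcript. On that scale *Apoe* was highest in WT livers at 17420.0 ± 1749 CPM per kb (SD, n = 8), followed by *Apoa2* at 12115 ± 1588, *Apoa1* at 7465 ± 2706, *Apoc1* at 4449 ± 529 and *Apoc3* at 3309 ± 625.2. The remaining genes were *Apoa5* at 950.4 ± 183 CPM per kb, *Apoc2* at 619 ± 38.2, *Apob* at 348 ± 50.3, *Apoa4* at 291 ± 142 and *Mttp* at 93.5 ± 8.07. The WT ranges did not overlap between *Apoe* and *Apoa2* (15029 to 20912 and 9413 to 14602 CPM per kb), between *Apoc3* and *Apoa5* (lowest 2398, highest 1144), between *Apoc2* and *Apob* (lowest 552, highest 405) or between *Apoa4* and *Mttp* (lowest 140.2, highest 106). The ranges of the other neighbours in this order overlapped between mice. Within a mouse, *Apoc1* was above *Apoc3* in all 8 WT livers, *Apoa2* above *Apoa1*, *Apoa1* above *Apoc1* and *Apoa5* above *Apoc2* in 7 of 8 each, and *Apob* above *Apoa4* in 5 of 8. In A226Y livers the order was the same except that *Apoa4*, at 682 ± 385 CPM per kb (SD, n = 10), came before *Apoc2* at 672 ± 104 and *Apob* at 426 ± 39.4, and within a mouse it was above *Apoc2* in 5 of 10. With the length of all annotated exons in place of the principal transcript, *Apoa2* came before *Apoe* in WT livers, at 11686 and 11472 CPM per kb.

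Some of the genes also varied together between mice of the same genotype. After each level was centred on its genotype mean, Pearson's r between log2 CPM values over the 18 mice ranged from −0.43 to 0.75 across the 45 pairs, with a median of 0.34. By a permutation test within genotype, 7 pairs passed after adjustment over the 45, and all 7 were positive and joined genes on different chromosomes. With library size as the only scaling 8 pairs passed, *Apoa4* with *Apoc2* being added (r = 0.64, adjusted permutation p = 0.0393). None of the 9 pairs within the chromosome 9 or chromosome 7 cluster passed (r from −0.33 to 0.50, median 0.34). *Apoc3* and *Apoe* were the only pair that also passed by rank, with r = 0.72 (permutation p = 0.00046, adjusted 0.0166) and Spearman's rho = 0.78 (permutation p = 0.00017, adjusted 0.00765). For each pair, r was also taken without the 2 mice farthest from the median of the first-named gene, so that it depends on the order of the pair. For *Apoc3* and *Apoe* this left out A226Y animals 23 and 29 and gave 0.57. *Apoa2* was part of 4 of the 7 pairs, with *Apoc1* (r = 0.75, permutation p = 0.00187, adjusted 0.0175; rho = 0.59, permutation p = 0.0126, adjusted 0.113), *Apoc3*, *Apoc2* and *Apoe*. The relation of *Apoa2* with *Apoc1* rested on A226Y animal 29 and WT animal 33, since r was 0.32 without them. Without the same mice r went from 0.73 to 0.60 with *Apoc3*, from 0.66 to 0.59 with *Apoe* and from 0.69 to 0.46 with *Apoc2*. The other pairs that passed were *Apoc2* with *Apoc3* (r = 0.73, 0.52 without 2 mice) and *Apoa5* with *Mttp* (r = 0.57, 0.52 without 2 mice). *Apob* and *Mttp*, the pair that builds the VLDL particle, had r = 0.45 (adjusted permutation p = 0.176).

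*Apoa1* and *Apoa4*, which lie in the chromosome 9 cluster with *Apoc3* between them, had r = 0.34 over all 18 mice (permutation p = 0.162, adjusted 0.314; rho = 0.43, permutation p = 0.0810, adjusted 0.284), and r was 0.61 without WT animals 28 and 33, the 2 mice farthest from the median of *Apoa1*. Within the 10 A226Y mice r was 0.91 (permutation p = 0.00031, adjusted 0.0279 over 90 relations; rho = 0.87, permutation p = 0.00204, adjusted 0.0918) and 0.97 without the 2 A226Y mice farthest from the median of *Apoa1*. Within the 8 WT mice r was −0.27 (permutation p = 0.515, adjusted 0.747; rho = −0.29, permutation p = 0.5001, adjusted 0.808) and −0.18 without the 2 WT mice farthest from the median of *Apoa1*. *Apoa1* and *Apoc2*, on different chromosomes, were the only other pair within a genotype that passed by either measure. In the A226Y mice their r was 0.81 (permutation p = 0.00499, adjusted 0.0757) and their rho 0.94 (permutation p = 0.00025, adjusted 0.0225), the only one of the 90 relations to pass by rank, and r was 0.75 without the 2 A226Y mice farthest from the median of *Apoa1*. In the WT mice their r was −0.49 (permutation p = 0.215, adjusted 0.421) and their rho −0.31 (permutation p = 0.462, adjusted 0.808). Both pairs were picked after their values were seen, and the difference between the genotypes was not tested.

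**Figure D3:**
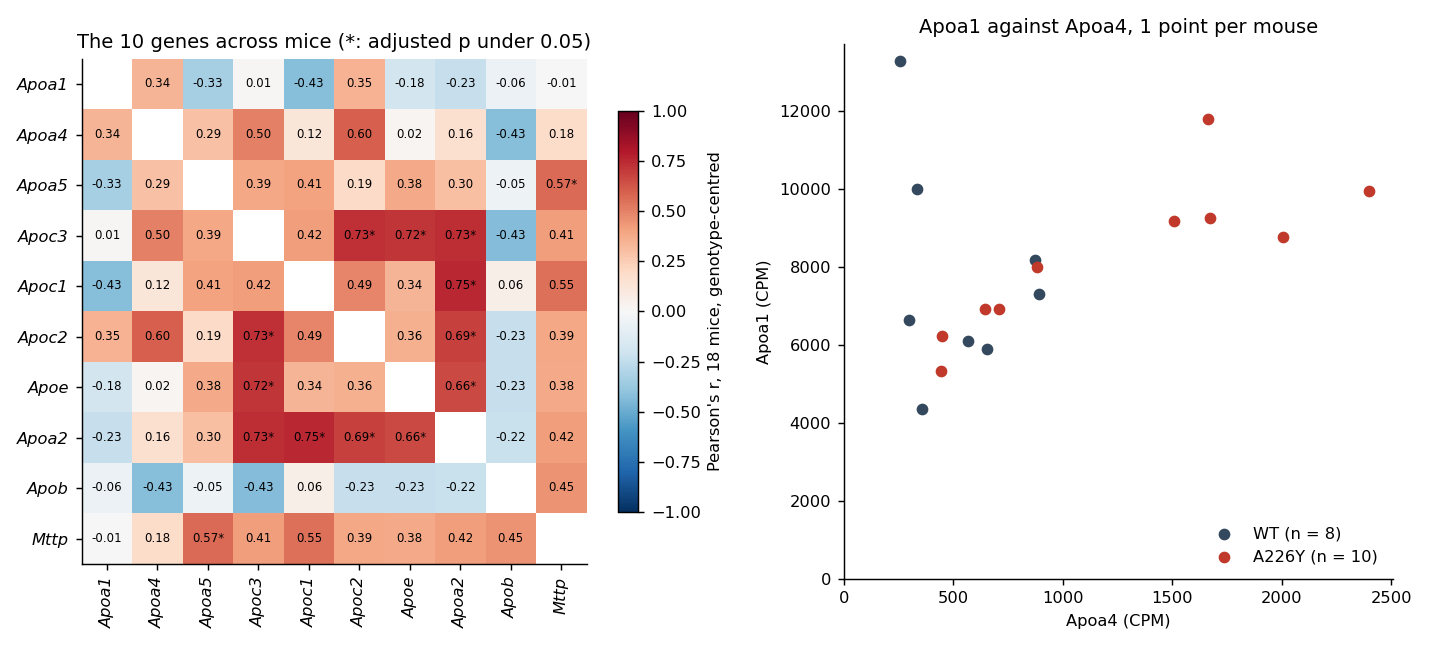
Left, Pearson's r between the genotype-centred log2 CPM values of each pair of genes over the 18 mice, as a printed value and a colour from −1 to 1, with a star for an adjusted permutation p under 0.05; right, *Apoa1* against *Apoa4* in CPM on linear axes, with 1 point per mouse. *Apoa2* is paired with positive values to *Apoc1* (0.75), *Apoc3* (0.73), *Apoc2* (0.69) and *Apoe* (0.66), while the block of the chromosome 9 cluster holds values up to 0.50. The *Apoa1* and *Apoa4* levels of the A226Y mice rise together (r = 0.91 for log2 CPM, which is not the plotted scale).

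Outside the 10 genes, the 3 genes most like *Apoe* across the 18 mice in genotype-centred log2 CPM, out of 11940 genes that averaged 1 CPM or more, were *Akr7a5* (r = 0.88), *Ppp1r37* (r = 0.86) and *H2-Ke6* (r = 0.85). Those most like *Apoa4* were *Pdzd11* (r = 0.85), *Hspe1* (r = 0.85) and *Pno1* (r = 0.85). These values are descriptions over mice that share their libraries and scaling.

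Other apolipoproteins and HDL proteins moved, where they passed the test, in the direction of *Apoe* and *Apoa2*. Of 13 tested, 3 fell, against 7.03% of all tested genes, and none rose, and the median log2 fold change was −0.15. *Apom*, which carries sphingosine-1-phosphate on HDL, fell by 0.32 on the log2 scale (SE 0.07, adjusted p = 0.00638). *Saa4*, a constitutive HDL protein, fell by 0.86 (SE 0.17, adjusted p = 0.00389), and *Pon1*, the paraoxonase of HDL, fell by 0.41 (SE 0.12, adjusted p = 0.0358). In all 10 A226Y mice the levels of *Apom*, *Saa4* and *Pon1* were under those of the average WT mouse. The genes of the list with the highest CPM did not pass, apart from *Pon1*, with log2 fold changes of −0.063 for *Apoh* (adjusted p = 0.663), −0.16 for *Clu* (adjusted p = 0.325) and 0.14 for *Apoc4* (adjusted p = 0.493), which lies with *Apoc2* in the chromosome 7 cluster. The 2 largest positive values of the list, picked after they were seen, were those of the acute phase genes *Saa1* (2.24, SE 1.40, adjusted p = 0.294) and *Saa2* (3.21, SE 1.59, adjusted p = 0.183). Of the A226Y mice, 1 reached 6100.3 CPM of *Saa1* and 7118 CPM of *Saa2* while the other 9 lay below the WT mean.

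Of 23 genes of VLDL assembly and secretion, 2 rose and 1 fell, with a median log2 fold change of 0.024. These 3 of 23 calls are near the share of all tested genes that was called (14.3%) and are no result about the list. *Sec23a*, a coat protein of vesicles that leave the endoplasmic reticulum, rose by 0.27 on the log2 scale (SE 0.07, adjusted p = 0.0195), and *Vmp1*, a membrane protein of the endoplasmic reticulum needed for lipoprotein release, rose by 0.25 (SE 0.07, adjusted p = 0.0243). *Dgat2*, which makes triglyceride, fell by 0.46 (SE 0.10, adjusted p = 0.00569). *P4hb*, the partner subunit of the *Mttp* product, had a log2 fold change of 0.043 (adjusted p = 0.793), *Hsp90b1* of 0.22 (adjusted p = 0.196) and the lipase gene *Ces1d* of −0.55 (adjusted p = 0.0627).

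Genes that remodel lipoproteins in plasma were mostly called as lower where they passed. Of 14, 4 fell, against 7.03% of all tested genes, and 1 rose, with a median log2 fold change of −0.20. *Lipc*, hepatic lipase, fell by 0.66 on the log2 scale (SE 0.17, adjusted p = 0.0132), with means of 103 ± 26.7 CPM (SD, n = 10) for A226Y and 163 ± 40.1 CPM (SD, n = 8) for WT. *Pltp*, the phospholipid transfer protein, fell by 0.66 (SE 0.20, adjusted p = 0.0321). *Lmf1*, which lipases need for their maturation, fell by 0.45 (SE 0.07, adjusted p = 0.00103), and *Lcat*, which esterifies HDL cholesterol, fell by 0.20 (SE 0.06, adjusted p = 0.0243). *Pcsk5*, a convertase, rose by 0.19 (SE 0.06, adjusted p = 0.0476).

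Of 15 receptors and other genes of lipoprotein uptake, 3 fell, against 7.03% of all tested genes, and none rose, with a median log2 fold change of −0.026. Among those that fell, *Lsr*, a lipoprotein receptor, fell by 0.37 on the log2 scale (SE 0.08, adjusted p = 0.00600), and *Lrpap1*, the chaperone of LDL receptor family proteins, fell by 0.19 (SE 0.06, adjusted p = 0.0257). *Lrp1*, which takes up *Apoe*-bearing remnants, had a log2 fold change of −0.18 (adjusted p = 0.313) and *Scarb1*, the HDL receptor, of 0.029 (adjusted p = 0.868).

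Among 28 regulators of apolipoprotein genes, 2 rose and 3 fell, against 14.3% of all tested genes in either direction, with a median log2 fold change of −0.041. *Ppargc1a*, a coactivator of the fasting response, rose by 0.74 on the log2 scale (SE 0.16, adjusted p = 0.00539), and *Rora* rose by 0.26 (SE 0.07, adjusted p = 0.0143). *Srebf1*, the regulator of fatty acid synthesis, fell by 1.22 (SE 0.26, adjusted p = 0.00551), *Srebf2*, the regulator of cholesterol synthesis, fell by 0.47 (SE 0.12, adjusted p = 0.0151), and *Foxa2* fell by 0.33 (SE 0.08, adjusted p = 0.0148). *Hnf4a*, a regulator of many of the 10 genes, had a log2 fold change of 0.083 (adjusted p = 0.590). *Creb3l3*, known to act on *Apoa4*, had one of 0.14 (adjusted p = 0.169).

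Genes known to follow feeding were counted in the same way. Of 14 genes raised by fasting, 2 rose (*Ppargc1a*, and *Igfbp1* by 1.68 on the log2 scale, SE 0.49, adjusted p = 0.0283) against 7.27% of all tested genes, and none fell. The other 12 did not pass, all 14 log2 fold changes were positive, and the median was 0.40. Their summed level ranged from 14252 to 25368 CPM in A226Y and from 9115 to 18375 CPM in WT livers. Of 12 genes raised by refeeding, 7 fell (among them *Srebf1*, *Fasn*, *Acly*, *Pklr*, *Mlxipl* and *Thrsp*) against 7.03% of all tested genes, and none rose, with a median log2 fold change of −0.58. *Thrsp*, a lipogenic gene, fell by 2.11 on the log2 scale (SE 0.39, adjusted p = 0.00285). The summed level of the refeeding list ranged from 1422 to 3396 CPM in A226Y and from 2201 to 4792 CPM in WT livers. No feeding state is given in the labels, and the part of feeding in the *Apoa4* difference and in the others was not tested.

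**Figure D4:**
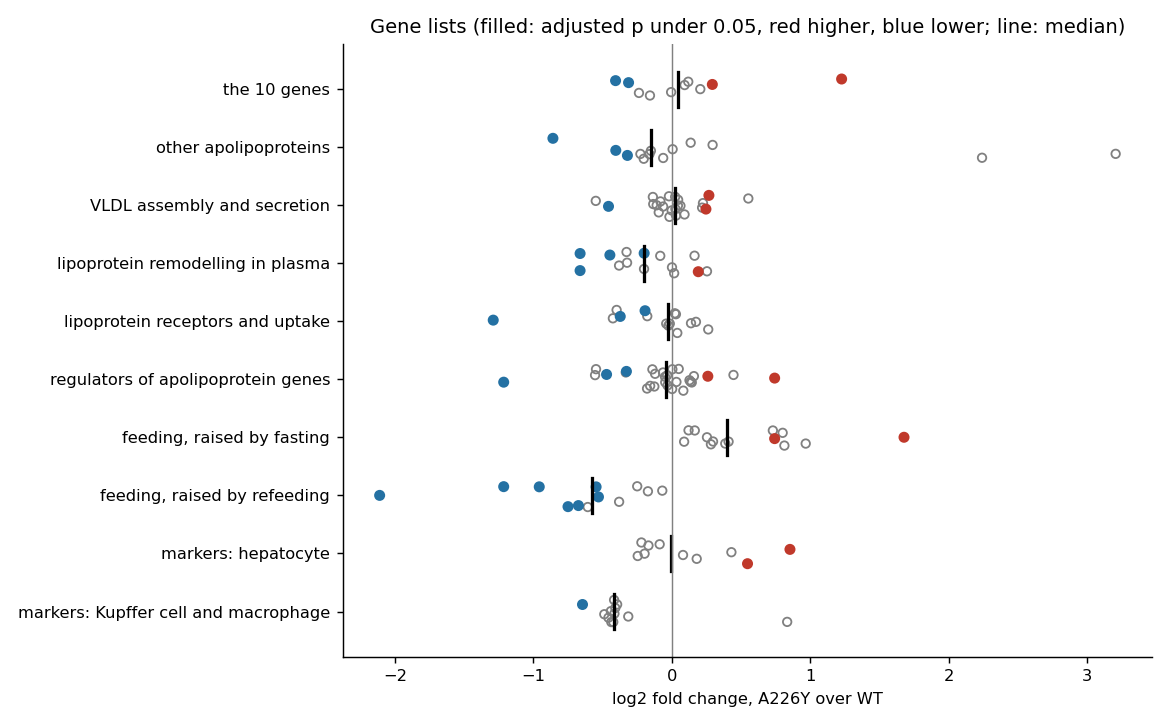
Log2 fold changes, A226Y minus WT, of the tested genes of each lipoprotein, regulator and feeding list and of the hepatocyte and macrophage markers, with 1 point per gene, filled points for an adjusted p under 0.05 over all tested genes (red higher, blue lower) and a line at the median of each list. The list raised by fasting lies above 0 (median 0.40) and the list raised by refeeding below it (median −0.58), while the 10 genes spread to both sides (median 0.043).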

How the data were processed

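Liver RNA of 10 A226Y and 8 WT mice was sequenced for the authors by GATC as short single-end reads. Raw counts, in whole numbers per Ensembl gene and not normalised, were deposited by the authors for every mouse. The submitters' processing notes name bcl2fastq, fastp, STAR, featureCounts, MultiQC and GRCm38, while the methods name RSEM with an Ensembl annotation, so the counting step is uncertain. The 22524 identifiers were matched to GENCODE M21 (22291 found).

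The 13353 genes that reached 10 counts in 50% or more of the A226Y or of the WT mice were tested with edgeR 4.0.16 in R 4.3.3: TMM scaling, quasi-likelihood fit and test, no covariate, Benjamini-Hochberg adjustment. The SE was the log2 fold change divided by the square root of F. Common biological variation was 0.194. Exact permutation tests ran over 43758 divisions of the mice on log2 CPM (prior count 2), and correlations used 100000 permutations within genotype. Intervals are 1.96 SE. Libraries of the same genotype differed beyond sampling noise in every pair (chi-square per degree of freedom at least 19.2). The labels give each mouse a number of its own. On simulated counts with 200 changed genes the test recovered 192 with 4 false calls among 13258 genes.

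The genes, the 20 lists and the tests were chosen with earlier results of these data known. Named genes are the 10 genes, *Rps2*, list genes with an adjusted p under 0.05, otherwise up to 4 of the highest mean CPM per list, and the 3 genes most like *Apoe* and *Apoa4*. Alternatives were RLE, upper-quartile or no scaling factors, other filters, DESeq2 1.42.0, limma-voom 3.58.1, a robust fit, 4 surrogate variables (sva 3.50.0), offsets for transcript length or GC content (lengths known for 99.6% of tested genes) and leaving out mice. Leaving out both libraries that stood apart was chosen after seeing the data. The values of some list genes are not reported here.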

Additional observations from a re-analysis of the deposited data

Results flagged for a closer look

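Among 24 groups of values tested for a sample far from the others (the 10 genes and the total count and counts share in each genotype), 2 were flagged, where chance flags about 1 in 20. *Apoc3* was highest in A226Y animal 23 at 2455 CPM, and the next A226Y mouse was at 1772 CPM, a gap of 0.510 of the group's range against a critical value of 0.466. The total count of the same library was 62126131, and the next A226Y library had 33543360 (0.747 of the range). Without this mouse the log2 fold change of *Apoc3* was −0.25 (adjusted p = 0.144 from edgeR) in place of −0.16.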

How the results depend on the processing

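Of 13353 genes, 1910 were called, and 50 with 4 surrogate variables. Leaving out 1 mouse gave between 1255 (without WT animal 14) and 2560 (without A226Y animal 29), and leaving out both libraries that stood apart gave 2363. Of the calls 50.8% were higher, against 67.9% of 2059 with library size as the only scaling. Of the 10 genes, 4 were called, 2 without a filter, 2 with a length offset, 2 with a GC offset, 0 with 4 surrogate variables, 6 without both libraries that stood apart, and between 1 (without WT animal 24) and 5 when 1 mouse was left out. *Apoe* kept its call under all of these except the surrogate variables (adjusted p = 0.192 from edgeR) and *Apoa4* except there (0.0798) and without WT animal 24 or A226Y animal 32. The log2 fold change of *Apoa1* was −0.10 with 4 surrogate variables, and that of *Apoa5* turned positive with library size only (0.029), limma-voom (0.020), the length offset (0.025) and the GC offset (0.068), and ran from −0.086 to 0.038 when 1 mouse was left out. Values that missed the threshold moved by over 1.5 times for *Apoc3* (−0.028 with 4 surrogate variables, −0.10 with the length offset, −0.089 with the GC offset), *Apoc2* (0.18 with the GC offset, 0.077 without A226Y animal 23), *Mttp* (0.13 with 4 surrogate variables), *Apoa1* (0.15 with library size only or the GC offset) and *Apoa5* (−0.16 with 4 surrogate variables). Of the called genes, *Apoa2* moved as far, to −0.18 with 4 surrogate variables (adjusted p = 0.294 from edgeR). So did *Apob*, to 0.18 with 4 surrogate variables (adjusted p = 0.342 from edgeR) and to 0.19 with the length offset (adjusted p = 0.101 from edgeR). The cause was not tested. No paired analysis was possible because the genotypes share no animal numbers.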

Other observations

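Of all tested genes 7.27% were called higher and 7.03% lower, against which the following counts of lists are to be read. The 16 acute phase genes held no call with all mice (median log2 fold change −0.049). The summed level of this list was highest in A226Y animal 29 and WT animal 33, and its calls without these mice are not given here. Of 15 tested clock genes 1 rose (*Clock*, 0.61, SE 0.09, adjusted p = 0.000932 from edgeR) and none fell, a count near that share. Among the other cell type lists, the hepatocyte list had 2 of 10 markers higher (*Cps1* and *Tat*, median −0.0039), the stellate cell list 1 higher and 2 lower of 10 (median 0.0012), and the sinusoidal endothelial (9 tested), cholangiocyte (6), lymphocyte (10), neutrophil (3) and erythroid (6) lists no call. Their medians were 0.039, 0.20, −0.48, 0.74 and −0.46. Of 5 adipocyte markers only *Cidec*, a lipid droplet gene, was tested, and it rose by 1.67 on the log2 scale (SE 0.40, adjusted p = 0.0109 from edgeR), from 4.71 ± 2.64 CPM (SD, n = 8) to 15.0 ± 10.7 CPM (SD, n = 10).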
